A study of Homo sapiens with 23 samples.

Results

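This is a report on the places in the genome of SCi-NCCIT cells where H3K9me3, the trimethyl mark of repressed chromatin on lysine 9 of histone H3, was called in both libraries made with doxycycline and in none of the 3 libraries made without it. A site was an H3K9me3 peak of doxycycline replicate 2 that shared at least 1 bp with a peak of doxycycline replicate 1, shared none with a peak of the 2 no doxycycline libraries or of the NCCIT library, and lay off every SVA retrotransposon of the list that the study deposited as S1 Data. Of 173423 peaks in doxycycline replicate 2, 90295 met a peak of doxycycline replicate 1, and 2146 of these met no peak of a control library. A further 155 overlapped a listed SVA, which left 1991 sites, 1.15% of the peaks, of which 1989 were on assembled chromosomes. The sites were thus chosen by their measured H3K9me3, and their presence with doxycycline is the rule and not a result.

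The KRAB domain recruits TRIM28 and the methyltransferase SETDB1, which places H3K9me3, and HP1 proteins then bind the mark. Fused to a catalytically dead Cas9, KRAB is carried to any place whose sequence matches a single guide RNA (sgRNA) and is followed by the short NGG motif. SVAs are among the youngest human retrotransposons and are composites whose SINE-R end derives from an endogenous retrovirus of the HERV-K group, so that retroviral repeats of that group hold related sequence. H3K9me3 is the usual state of such repeats, but in pluripotent cells some of them are bound by OCT4, a regulator of pluripotency, and by YY1, a zinc finger protein found at promoters and enhancers.

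NCCIT is a human embryonal carcinoma line. SCi-NCCIT cells are NCCIT cells that carry, through piggyBac, a tetracycline-inducible dCas9-KRAB cassette and 2 sgRNAs, which the study describes as made against a sequence that SVAs share with the LTR5Hs family, so that copies of that family are also targets, and stable clones were isolated for the first of these. The doxycycline groups had 2 µg/mL doxycycline for 72 h, the no doxycycline groups were the same engineered cells without it, and the NCCIT library came from cells without dCas9-KRAB. H3K9me3 was mapped in 2 doxycycline, 2 no doxycycline and 1 NCCIT library, YY1 in 2 and 2, OCT4 in 1 and 1, and RNA in 3 and 3. Every library with doxycycline also had dCas9-KRAB and both guides, so an effect of the drug, of the fusion protein without a guide and of the guided protein cannot be told apart by the groups alone. The sources do not say whether replicates were separate cultures, so the p-values below measure the spread between these libraries, which may be technical.

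The count of sites rested on each of the 4 SCi-NCCIT libraries. It was 20948 without doxycycline replicate 1, 7197 without doxycycline replicate 2, 4525 without no doxycycline replicate 1 and 3945 without no doxycycline replicate 2, and 2437 without the NCCIT library. The 5 libraries held between 123014 and 181332 peaks, and 68479 peaks of doxycycline replicate 2 were met in all of them. Only peak lists were used, so the read depth of these libraries is unknown and a missing peak is not a measured absence of the mark. Indeed 1221 of the 1991 sites (61.3%) had a peak of a control library within 1 kb, at a median gap of 501 bp over all sites.

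At the edge of the rule, 24 sites shared 10 or fewer bases with a peak of doxycycline replicate 1, the fewest being 1 base, and 35 sites had a control peak within 10 bp. Just outside it, 35 peaks were kept out by 10 or fewer bases shared with a control peak. The lowest −log10 q of a site was 1.31, and the median site was covered over 61.6% of its length by a peak of doxycycline replicate 1.

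The sequences that tie some of these sites to the guides are shown first. Each guide is 20 bases, read here from hg19 in the 5′ to 3′ direction, and 2 further words of the same length, each followed by an NGG, come after the guides. The SVA word was the commonest such word among the listed SVAs, and the other word was the commonest at the sites of those that under 1% of the listed SVAs held and that were at least 5 times as frequent at the sites as over a sample of doxycycline replicate 2 peaks. The other word was picked from the sites after their sequences were seen, so its frequency there is a description.
sgRNA1: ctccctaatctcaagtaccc
sgRNA2: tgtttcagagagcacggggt
SVA word: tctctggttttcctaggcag
other word: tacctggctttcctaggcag

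The SVA word stood without mismatch in 322 of 635 listed SVAs on assembled chromosomes and in 89 of the 1989 sites. The other word stood in 0 of the 635 SVAs and in 110 sites. No repeat annotation was used, so neither word is assigned here to SVAs, LTR5Hs or another repeat family, and since S1 Data lists only SVAs that lacked H3K9me3 in the study's stem cells, a site off that list may still lie on or beside another SVA.

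A match to sgRNA1 or sgRNA2, with up to 3 mismatches and an NGG, lay on or within 1 kb of 496 of the 1989 sites (24.9%, Wilson 95% interval 23.1 to 26.9%). These 496 are called guide sites below. The share was 2.45% over all peaks of doxycycline replicate 2 and 3.29% over peaks met in all 5 libraries, while all 154 doxycycline-only peaks on a listed SVA and on an assembled chromosome had a match within 500 bp. Intervals on shares cover counting error only. Both guides matched near 429 guide sites, sgRNA1 alone near 54 and sgRNA2 alone near 13. An exact match of either guide was within 1 kb of 388 sites.

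On the site itself a match was found for 239 of the 1989 sites, and within 2 kb for 31.6%, within 10 kb for 40.5% and within 50 kb for 47.1%. At 50 kb the share over all peaks of doxycycline replicate 2 was 14.7%. The sites without a match within 1 kb were thus the majority, 1493 of 1989, and the larger share of these had none within 50 kb either.

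Guide sites were wide and strong among the sites. Fold enrichment is the signal at a peak over the local background as the peak caller gave it. The 1991 sites were 279 to 8149 bp wide with a median of 459 bp, and their median fold enrichment in doxycycline replicate 2 was 3.96. For guide sites the median width was 1206 bp and the enrichment 6.16, against 404 bp and 3.73 for the 1493 sites without a match. Ranked by the lower of the 2 doxycycline fold enrichments, 48 of the 50 strongest sites (96.0%) were guide sites, as were 43 of the next 50 (86.0%) and 15 of the 389 weakest (3.86%). For doxycycline-only peaks on listed SVAs these medians were 1618 bp and 7.04. These widths and enrichments come from the peaks that the rule selected and are given without a test.

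The guide sites fell into 2 kinds by the word that matched on or within 1 kb of the site with fewer mismatches. The 223 sites of the other word had medians of 2204 bp in width and 7.63 in enrichment, and 126 of them were over 2 kb wide. The 244 sites of the SVA word had medians of 794 bp and 5.56, and at 29 guide sites neither word had fewer mismatches. Where the match lay on the site, as at 239 guide sites, the median width was 1971 bp. It was 763 bp at the 257 sites that lay beside their match. A wider peak covers a nearby match more easily, so part of this contrast is built into the split.

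**Figure D1:**
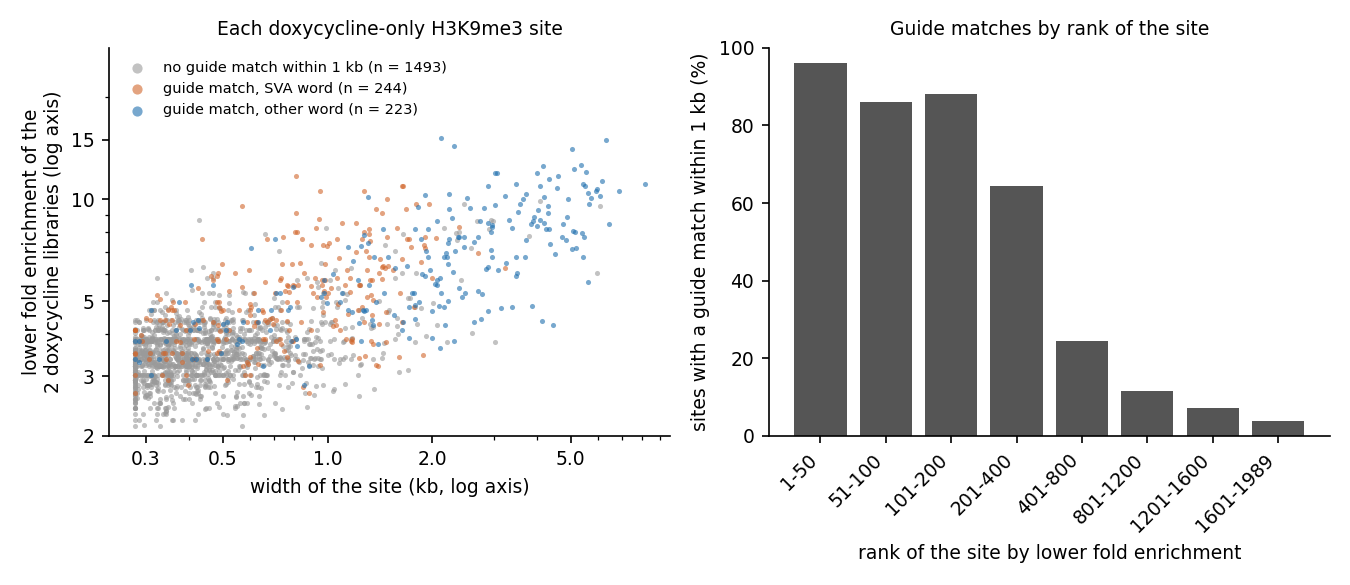
Left, width (kb, log axis) against the lower of the 2 doxycycline fold enrichments (log axis), 1 point for each site on an assembled chromosome, coloured by guide match within 1 kb and by word (the 29 guide sites of neither word are not drawn). Right, share of sites (%) with a guide match within 1 kb by rank of fold enrichment, falling from 96.0% of the 50 strongest to 3.86% of the weakest, while the widest sites on the left are mostly those of the other word.

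The same question was asked from the side of the guide matches, which were found by sequence alone. Matches within 2 kb of each other were joined, and 2718 such guide places lay more than 2 kb from every listed SVA. An H3K9me3 peak within 1 kb was found at 66.7% of them in NCCIT, at 82.4% and 77.1% in the no doxycycline libraries and at 91.4% and 91.8% in the doxycycline libraries. The 2 doxycycline values were above all 3 control values. The means were 91.6% ± 0.34 with and 79.8% ± 3.77 without doxycycline (SD, n = 2 each), a difference of 11.9 percentage points. These are the peaks that the rule used, and 413 of the places (15.2%) had a site within 1 kb, so the difference is given without a test.

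The kinds of place differed in how much of the mark they had without doxycycline. Of the 1942 places of the SVA word, 80.5% had a peak in NCCIT, 99.3% and 91.7% in the no doxycycline libraries and 99.6% and 98.9% in the doxycycline libraries. Of the 511 places of the other word, 22.3% had one in NCCIT, 27.6% and 31.5% without doxycycline and 72.8% and 76.7% with it. Places of the SVA word carried the mark almost everywhere in every SCi-NCCIT library, and more places of the other word carried it with doxycycline (72.8% and 76.7%) than without it. Since the other word was picked from the sites, these shares by word are a description. A site of the kind described here lay within 1 kb of 203 SVA word places (10.5%) and of 187 other word places (36.6%). At the 413 places with a site, of either word or neither, the site covered the match at 238, lay on 1 side of it at 167 and flanked it on both sides at 8.

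**Figure D2:**
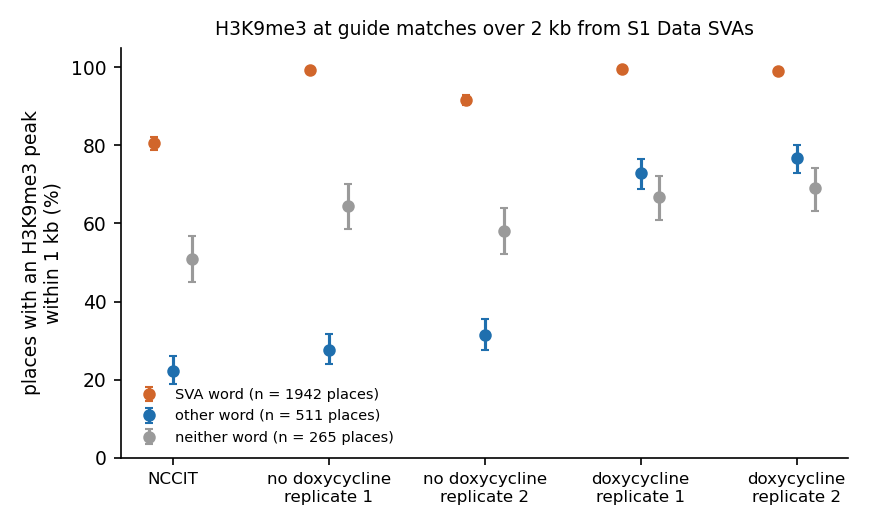
Share of guide places more than 2 kb from a listed SVA that had an H3K9me3 peak within 1 kb (%), 1 point for each of the 5 libraries, by word, with Wilson 95% intervals as bars. Other word places stood at 22.3 to 31.5% in the 3 control libraries and at 72.8 and 76.7% with doxycycline, while SVA word places stood at 91.7% or higher in all 4 SCi-NCCIT libraries.

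Few of the sites were beside a listed SVA. The median distance to the nearest was 2142 kb, and 86 of the 1991 sites (4.32%, Wilson 95% interval 3.51 to 5.30%) had one within 10 kb, against 0.641% of all doxycycline replicate 2 peaks and 0.388% of peaks met in all 5 libraries. These 86 sites lay by 75 SVAs, 32 of which carried a doxycycline-only peak of their own. Within 10 kb of a listed SVA were 41 guide sites and 44 sites without a match. The nearest 3 were all SVA word guide sites, with the match 149 to 185 bp away. The site at chr22:49810097-49811263, in an exon of the noncoding MIR3667HG, touched its SVA end to end, which is counted here as 1 bp. Counted in the same way, the site at chr16:30182259-30182727 near CORO1A lay 8 bp from its SVA. The site at chr11:32755599-32755956, in an intron of CCDC73, lay 16 bp from its SVA.

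The sites were mostly alone. Sites within 5 kb of each other were joined into 1811 loci, of which 1663 held a single site and 148 held 2 or more, up to 5. Of the 1989 sites on assembled chromosomes, 184 (9.25%) lay within 1 kb of a transcription start site (TSS) of the annotation, 95 in an exon, 957 (48.1%) in an intron and 753 (37.9%) between genes. The TSS share was 5.34% over all doxycycline replicate 2 peaks. It was 20.6% for sites of the other word, 7.79% for those of the SVA word and 7.64% for sites without a match. Chromosome 19 was the densest, with 86 sites or 14.5 per 10 Mb, and chromosome Y had 1. Chromosome 19 held 4.32% of the sites and 2.8% of all doxycycline replicate 2 peaks. Chromosomes 16 and 17 held 3.11% and 3.67% of the sites and 1.74% and 1.79% of those peaks.

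The 10 sites with the highest lower fold enrichment were all of the other word, and in all 10 a guide match lay on the site. The strongest, chr3:188968442-188970563, lay in an intron of TPRG1 and had fold enrichments of 16.3 and 15.2 in doxycycline replicates 1 and 2. A control peak lay 293 bp from it, although it is 2122 bp wide. The second, chr6:2905245-2911561, was 6317 bp wide, with fold enrichments of 14.9 and 17.6, and lay 1702 bp from the TSS of SERPINB9, which encodes an inhibitor of granzyme B. The nearest control peak was 11000 bp away. The third, chr6:3054111-3056413, had fold enrichments of 14.4 and 16.9 and lay upstream of RIPK1, a kinase of cell death signalling, 7.65 kb from its TSS.

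The other 7 were chr1:15704001-15709045 at the TSS of FHAD1, chr1:65602788-65608150 at 5.08 kb from that of the mitochondrial adenylate kinase AK4, chr11:71477037-71481183, chr2:130717433-130722525, chr6:44294063-44299604 near AARS2, the mitochondrial alanyl-tRNA synthetase, chr5:74902394-74905459 near ANKDD1B and chr5:58758895-58761919 in an intron of the phosphodiesterase gene PDE4D. Only 2 of the 10 were within 10 kb of a listed SVA, the ANKDD1B site at 1.20 kb and the AARS2 site at 8.87 kb. Each of the 10 had a YY1 peak in at least 1 library, and 9 had an OCT4 peak without doxycycline, against 1 with it.

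YY1 and OCT4 were measured in libraries that the rule did not use. A YY1 peak lay on 194 (9.74%) and 235 (11.8%) of the 1991 sites in the no doxycycline libraries, and on 151 (7.58%) and 208 (10.4%) in the doxycycline libraries. The groups overlapped. Their means were 10.8% ± 1.46 without and 9.02% ± 2.02 with doxycycline (SD, n = 2 each), a difference of −1.76 percentage points (exact permutation test, two-sided p = 0.667, smallest possible 0.333). Over all peaks of doxycycline replicate 2 the shares moved the other way, from 3.40% and 5.30% to 4.85% and 7.86%. The doxycycline YY1 libraries also held more peaks, 82005 and 115673 against 56370 and 76098. With the 56370 strongest peaks taken from each library, the mean shares of sites were 9.92% without and 6.00% with doxycycline, a difference of −3.92 percentage points at which the groups did not overlap (exact permutation test, p = 0.333).

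At guide sites the YY1 groups did not overlap. The shares were 31.5% and 37.3% without and 22.6% and 28.2% with doxycycline, a difference of −8.97 percentage points (exact permutation test, p = 0.333, the smallest possible). Over all doxycycline replicate 2 peaks with a guide match within 1 kb the groups overlapped. The shares there were 20.2% and 22.6% without and 19.7% and 20.7% with doxycycline. With equal numbers of peaks the means at guide sites were 32.1% without and 17.4% with doxycycline. Sites of the other word carried most of this YY1, on 132 and 152 of the 223 without and on 98 and 123 with doxycycline. Sites of the SVA word had 8.20% and 11.1% against 4.10% and 4.51%, and sites without a match had 2.55% and 3.35% against 2.61% and 4.56%. A wider site can meet a peak more easily, and the shares of the kinds of site were not adjusted for width. Median widths were 2204 bp for the other word, 794 bp for the SVA word and 404 bp without a match. Over all sites, 118 had YY1 in all 4 libraries, 20 in both no doxycycline libraries and neither doxycycline library, and 1 the reverse.

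OCT4 had 1 library a condition, so its difference has no replicate check. A peak lay on 195 sites (9.79%) without doxycycline and on 56 (2.81%) with it, of which 53 were shared, 142 were found only without doxycycline and 3 only with it. The shares were 34.1% and 8.87% at guide sites, 65.0% and 18.4% at sites of the other word, and 1.74% and 0.804% at sites without a match. As for YY1, the kinds of site differ in width and the shares were not adjusted for it. None of the 244 SVA word sites had OCT4 with doxycycline (Wilson upper limit 1.55%), against 18 without. The doxycycline OCT4 library held 23352 peaks against 50775, and over all doxycycline replicate 2 peaks the share went from 2.91% to 1.44%. With the same number of strongest peaks taken from each library, the shares at guide sites were 25.0% and 8.87%.

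Without doxycycline, YY1 and OCT4 were found together on part of the sites. Both no doxycycline YY1 libraries and the OCT4 library had a peak on 116 sites, of which 111 were guide sites and 101 were of the other word. The words AAGATGGC, a core of the YY1 motif, and ATGCAAAT, the octamer bound by OCT4, were searched on both strands in the 500 bp around the H3K9me3 summit. The first stood at 2.16% of sites and 2.80% of a sample of doxycycline replicate 2 peaks, 1 in 10 of them, and the second at 5.68% and 8.45%. Of the 195 sites with OCT4 without doxycycline, 10 (5.13%) had the octamer in that window. Of the 166 with YY1 in both libraries without doxycycline, 8 (4.82%) had the YY1 word. The window was not placed on a YY1 or OCT4 summit, and other word sites had a median width of 2204 bp. Motifs elsewhere on a site were thus not searched.

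**Figure D3:**
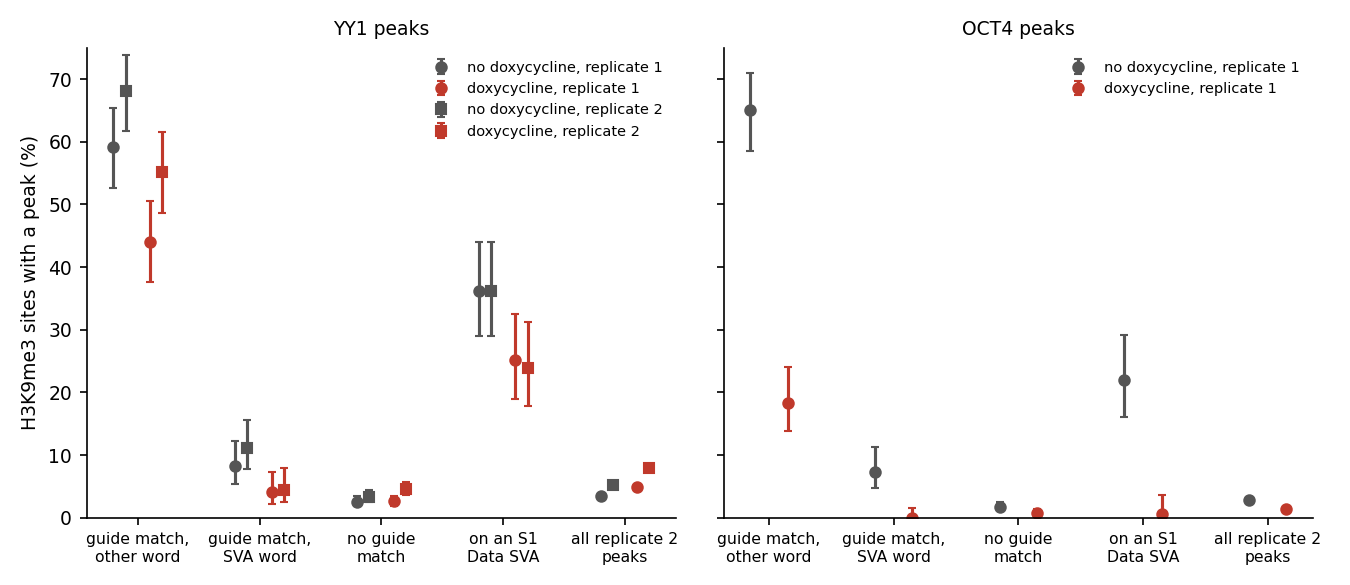
Share of sites (%) with a YY1 or OCT4 peak in each library, with and without doxycycline, for the kinds of site described in the text and for all doxycycline replicate 2 peaks. Bars are Wilson 95% intervals, and at other word sites both YY1 values with doxycycline (55.2% or lower) lay below both without it (59.2% or higher), while OCT4 went from 65.0% to 18.4%.

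The strongest YY1 on a site was at chr19:39969152-39971211, over the TSS of TIMM50, which encodes a subunit of the mitochondrial import machinery. Its YY1 fold enrichments were 82.2 and 75.5 with doxycycline and 61.5 and 63.9 without, so YY1 was not lower there although H3K9me3 reached fold enrichments of 8.60 and 9.63. An OCT4 peak of fold enrichment 5.27 lay there with doxycycline and none without. The RNA of TIMM50 was 77.0, 75.9 and 77.1 CPM without and 73.4, 71.0 and 67.6 with doxycycline. CPM are counts scaled to a library total that was adjusted by the TMM factor of edgeR. The difference did not pass the test (edgeR log2 fold change −0.12 ± 0.05 SE, adjusted p = 0.154). TIMM50 is named here as the nearest gene to that site and its RNA was read after the site was seen. At chr11:62625628-62628512, in an intron of the amino acid transporter gene SLC3A2, the YY1 fold enrichments were 34.2 and 11.2 with and 30.2 and 11.2 without doxycycline. OCT4 stood there at 12.7 without and 5.40 with it. The other site of highest YY1, chr17:41443547-41443883, was 337 bp wide, had no match within 10 kb and lay 40 bp from a control peak.

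RNA was compared with edgeR over 16371 genes, of which 2858 (17.5%) were called at a Benjamini-Hochberg adjusted p under 0.05, 8.97% higher and 8.48% lower with doxycycline. Library totals ran from 14683302 to 47862233 estimated counts. In such bulk samples, fewer cells of a type and less RNA per cell cannot be told apart. Within 10 kb of a site lay 2123 genes, 1044 of them protein-coding, and 970 were expressed highly enough to be tested. Of these, 236 (24.3%) were called, 42 higher and 194 lower. The median log2 fold change was −0.11, against −0.003 over all genes. Without doxycycline replicate 2 the count near sites was 138, and without no doxycycline replicate 2 it was 147, with lower genes still the more numerous at 116 and 121. Over all genes those fits called 8.39% and 8.83%.

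Genes were called lower most often close to guide sites. By gene body within 10 kb, 93 of 306 tested genes by guide sites and 118 of 722 (16.3%) by sites without a match were lower, some genes being by both. With a TSS within 1 kb of a guide site, 21 of 37 tested genes (56.8%) were lower and 0 were higher, at a median log2 fold change of −0.44. Between 1 and 10 kb 44 of 143 (30.8%) were lower, between 10 and 50 kb 113 of 473 (23.9%), and between 50 and 100 kb 60 of 494 (12.1%). For all sites without a match within 1 kb, 10 of 48 (20.8%) were lower within 1 kb of the TSS and 60 of 330 (18.2%) within 10 kb. For the subset of sites with no match within 50 kb the same 4 distances gave 12.9%, 11.1%, 10.5% and 7.51%, near the 8.48% of all genes and the 10.7% of genes within 10 kb of any doxycycline replicate 2 peak. In all, 65 of 180 genes with a TSS within 10 kb of a guide site were lower and 4 were higher.

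By word, 47 of 106 tested genes within 10 kb of an other word site were lower and 1 was higher. Their median was −0.33 on the log2 scale, and 18 of the 106 (17.0%) were at −1 or below, against 1.25% of all genes in the same call. Within 10 kb of an SVA word site, 19 of 67 were lower and 3 higher. Guide places without a site within 1 kb also had such genes. There 132 of 623 genes (21.2%) were lower, against 62 of 160 (38.8%) at guide places with a site.

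**Figure D4:**
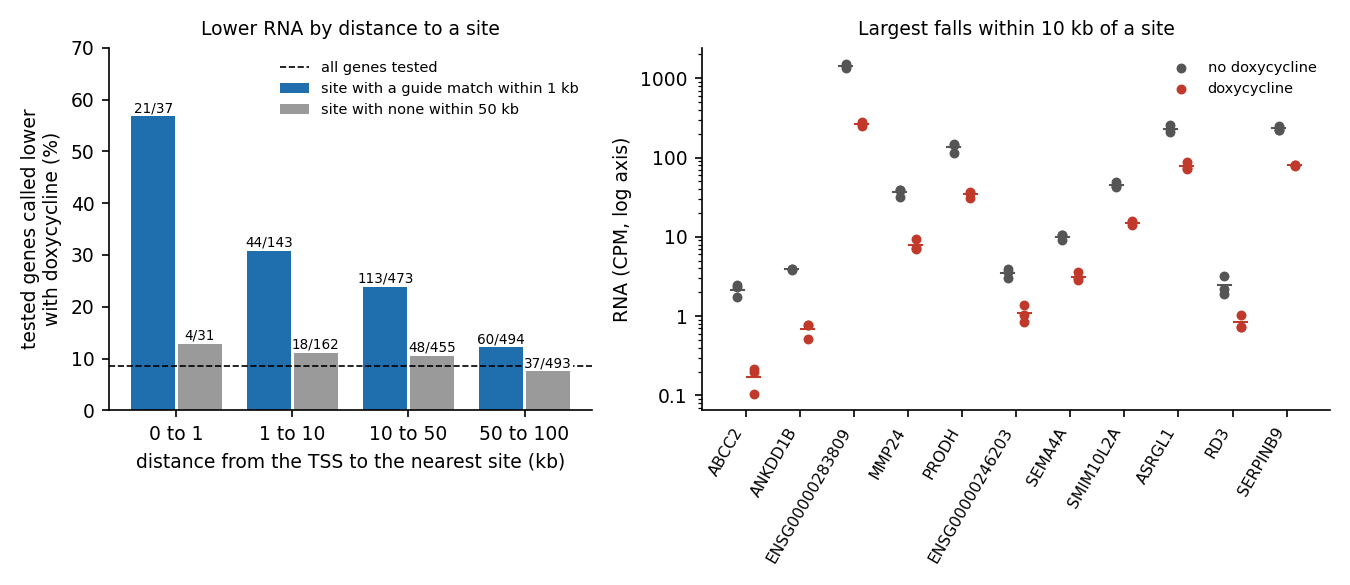
Left, share of tested genes called lower with doxycycline (%) by distance from the TSS to the nearest site (kb), for guide sites and for sites with no match within 50 kb, with gene counts above the bars and the share of all genes, 8.48%, as a dashed line. Right, RNA (CPM, log axis) of the largest falls within 10 kb of a site in each of the 3 libraries a condition, with the mean as a line and the pseudogene on chromosome 8 left out. Genes were drawn only if their groups did not overlap.

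Of the 12 largest falls among genes within 10 kb of a site, 9 had a guide site there, as had 306 of all 970 genes tested near a site. ABCC2, an export pump for organic anions, stood at 2.45, 2.30 and 1.74 CPM without and 0.200, 0.105 and 0.213 with doxycycline (log2 fold change −3.61 ± 0.29 SE, edgeR adjusted p = 7.35e-05). The gene was low in all libraries. Its site, chr10:101578926-101583416, was 4491 bp wide and covered an exon 20.1 kb from the TSS.

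PRODH, the proline dehydrogenase that begins proline breakdown, had a site of 2510 bp, chr22:18923922-18926431, on its TSS. Its RNA was 143, 149 and 115 CPM without and 35.4, 31.3 and 36.4 CPM with doxycycline (log2 fold change −1.98 ± 0.10 SE, edgeR adjusted p = 4.36e-06). YY1 lay on the site in all 4 libraries and OCT4 in both. ENSG00000283809, a protein-coding model that overlaps PRODH and so may share its reads, fell by 2.42 on the log2 scale.

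SERPINB9 was at 224, 250 and 225 CPM without and 79.8, 78.6 and 80.4 with doxycycline (log2 fold change −1.55 ± 0.06 SE, edgeR adjusted p = 8.55e-07). The libraries of a condition lay close together. ANKDD1B, a gene of the ankyrin repeat class, was at 3.95, 3.91 and 3.81 CPM without and 0.778, 0.775 and 0.510 with it (log2 fold change −2.49, adjusted p = 4.19e-05).

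MMP24, a membrane-bound matrix metalloproteinase, was at 38.8, 39.0 and 31.7 CPM without and 9.53, 7.26 and 6.93 with doxycycline, and its site chr20:33849327-33853233 lay inside the gene 34.8 kb from its nearest TSS. SEMA4A, a semaphorin, went from a mean of 10.0 ± 0.859 to 3.15 ± 0.399 CPM (SD, n = 3 each) and ASRGL1, an asparaginase, from 229 ± 23.7 to 77.9 ± 8.37 CPM. Both had other word sites, at 3.08 and 9.37 kb from a TSS.

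The falls without a guide site within 10 kb were ENSG00000248347, a pseudogene on chromosome 8 with 3 sites, SMIM10L2A and RD3. Their log2 fold changes were −3.33, −1.57 and −1.55. The nearest guide site to these lay 1841 kb, 459 kb and 2833 kb from their TSS. ENSG00000246203, a pseudogene with 4 sites by it, fell by 1.68 on the log2 scale, and reads of pseudogenes may be shared with their parent genes.

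Of the 12 largest rises, 3 had a guide site within 10 kb, all of the SVA word. IL23R, the receptor of interleukin 23, rose from 0.273, 0.284 and 0.232 to 6.62, 8.52 and 6.85 CPM (log2 fold change 4.81 ± 0.20 SE, edgeR adjusted p = 8.55e-07). It was nearly silent without the drug. Its site, chr1:67619942-67622006, lay in an intron, and the nearest guide site was 1996 kb from its TSS. LGR6, a receptor for R-spondins, rose from 16.5, 16.1 and 15.5 to 66.0, 66.5 and 64.9 CPM (log2 fold change 2.04 ± 0.06 SE), with an SVA word site of fold enrichments 19.5 and 7.72 that ended 2.85 kb from the gene. STON1-GTF2A1L and ABCB5, a transporter, were the other 2 with guide sites and rose by 1.71 and 1.15 on the log2 scale.

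The remaining 8 rises, with log2 fold changes of 0.68 to 1.52, had no guide match at the site. They were KHDRBS2, ALDH1A2, which makes retinoic acid, FEZ1, SIL1, a cochaperone of the endoplasmic reticulum, WIPI1, an autophagy protein, CUBN, a receptor of vitamin uptake, ATP8B3 and OSGEP, a tRNA modification enzyme. CUBN stood at 0.954, 1.29 and 1.25 CPM without and 2.00, 1.76 and 2.08 with doxycycline, and its adjusted p of 0.0276 with edgeR was 0.0783 with DESeq2.

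A strong site did not always go with lower RNA. Of the genes tested nearest to the 10 strongest sites, SERPINB9, ANKDD1B, AARS2, FHAD1, AK4 and the noncoding ENSG00000291186 were lower, with log2 fold changes between −2.49 and −0.35. TPRG1, at 4.16, 4.32 and 5.04 CPM without and 3.60, 4.12 and 3.70 with doxycycline, did not pass (log2 fold change −0.26, edgeR adjusted p = 0.188), and neither did RAB6C-AS1 (−0.66, adjusted p = 0.245), RIPK1 (0.19, adjusted p = 0.0604) or PDE4D (0.05, adjusted p = 0.893). TPRG1 held the strongest site, but its TSS was 14.8 kb away. Of the 10 tested genes with 4 or more sites within 10 kb, STON2, an endocytosis adaptor, and ENSG00000246203 were lower and the other 8 were not called. Those 8 included BACH1, KCNJ6, FANCC, TMEM170A and PLPP7.

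Among the 37 genes whose TSS was on or within 1 kb of a guide site, several were named after their values were seen. PROM1, the surface protein CD133 of stem cells, had a site on its TSS and was at 133, 138 and 133 CPM without and 53.7, 55.3 and 57.4 with doxycycline (log2 fold change −1.28 ± 0.05 SE, edgeR adjusted p = 8.55e-07). VSIG10, a protein with immunoglobulin domains, had a log2 fold change of −1.34 ± 0.08 SE. SLC25A16, a mitochondrial carrier, was at 34.5, 35.5 and 32.2 CPM and then 15.8, 15.9 and 14.9. In all 3 the conditions were apart. NDUFV1, a core subunit of respiratory complex I, also had a site on its TSS, and at 255, 230 and 236 CPM without and 254, 247 and 229 with doxycycline its groups overlapped (log2 fold change 0.02, adjusted p = 0.868).

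The genes that write, read and remove H3K9me3 were a list of 21, all tested, of which 0 rose and 3 fell, where 8.97% and 8.48% of all genes did. KDM4C, a demethylase of the mark, had 3 sites, the strongest an SVA word site in an intron, and fell by 0.68 on the log2 scale. MPHOSPH8, a subunit of the HUSH complex, fell by 0.67 and the demethylase KDM4A by 0.24. Sites also lay by PPHLN1, another HUSH subunit, where the site of 2711 bp had YY1 in all 4 libraries, and by ATF7IP, a partner of SETDB1, and neither gene was called.

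Of 569 protein-coding zinc finger genes, 41 (7.21%) were within 10 kb of a site, against 5.17% of all protein-coding genes. Of the 39 tested near a site 11 fell and 0 rose, and of all 533 tested 73 fell and 9 rose, against 8.48% lower and 8.97% higher over all genes and 194 lower of the 970 tested near a site. ZNF517 and ZNF696 were the 2 of the 11 with a guide site within 1 kb of the TSS, at log2 fold changes of −0.68 and −0.39. ZNF248, at −0.82, and ZNF90, at −0.55, had no guide site within 100 kb. Of 53 clustered protocadherins 2 were near a site and neither was called, and of 19 HLA genes 0 were near one.

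As to the state of the cells, of 10 markers of pluripotent cells 0 rose and 5 fell, where 8.97% and 8.48% of all genes did, among them TDGF1, a NODAL coreceptor, which fell by 1.13 on the log2 scale, and NANOG, which fell by 0.57. The summed level of the 10 was 2885 to 3117 CPM without and 2390 to 2626 CPM with doxycycline. POU5F1, which encodes OCT4, was at 240, 177 and 171 CPM and then 199, 170 and 170 (log2 fold change −0.12, edgeR adjusted p = 0.527). Of 13 markers of other cells 10 were tested and 2 rose, GATA6 by 1.46 and NEUROG2 by 0.98, while the summed level was 1487 to 1624 and then 1405 to 1612 CPM. The part of these changes in the results above was not tested. One pluripotency gene, LIN28B, had a site, a narrow one without a match 29339 bp from its TSS.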

How the data were processed

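The sites, words, gene lists and distances were chosen with earlier results of these data known. Peaks had been deposited by the authors as 1 list a library on hg19 with a fold enrichment (a ratio to local background), a −log10 p-value and a −log10 q-value for each peak. The labels and the chromatin protocol name H3K9me3, while the study's list of antibodies names H3K27me3 beside the Abcam product used, and the peaks are taken here as the labels give them. The study's methods give trimming, BWA alignment, a mapping quality filter, duplicate removal and peak calling at a 5% false discovery rate, and the name of the peak caller is not given in the sources used here. RNA was deposited by the authors as kallisto estimated counts and TPM for each transcript. BWA, kallisto and deepTools are also named in the submitters' processing notes. TPM was not used for tests. HiChIP and the other samples were not used here. The sequence around the guide matches is not reported here.

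Overlaps were of at least 1 bp, computed with numpy 2.4.6 and pandas 2.3.3 in Python 3.11.15. Intervals that touched end to end were counted as 1 bp apart. The overlap functions were checked against bedtools 2.31.1 on simulated intervals. Guides were read from hg19 and searched on both strands of the 24 assembled chromosomes with up to 3 mismatches and an NGG. Genes, exons and TSS came from GENCODE on the same build. Estimated counts were summed for each gene, rounded and tested with edgeR 4.0.16 (quasi-likelihood, TMM, R 4.3.3) over all genes with Benjamini-Hochberg adjustment at 0.05, with no covariate. The SE beside a log2 fold change is the size of that change divided by the square root of the quasi-likelihood F statistic. DESeq2 1.42.0 was an alternative. Counts were simulated for this comparison at the trended dispersion, with log2 fold changes of 1 in size. Of 194 changed genes among 16190, 84.5% were recovered, with 5 false calls of 169. Recovery of smaller changes was not measured. Replicates differed by more than counting noise, with a chi-square of 7 to 13.7 a gene. The genes named were the 12 largest rises and falls among called genes within 10 kb of a site with a mean CPM of at least 1 and no overlap between groups, genes nearest to the 10 strongest sites, and genes with 4 or more sites. The sites named were the 10 of highest lower fold enrichment (chromosome 8 was left aside by the rule, but its strongest site ranked only 13), 3 of highest YY1 and 3 nearest a listed SVA.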

Additional observations from a re-analysis of the deposited data

How the results depend on the processing

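The number of sites, 1991, was 966 with −log10 q of at least 5, 1245 when doxycycline replicate 1 covered at least 50% of the site and 770 with no control peak within 1 kb, and 2437 to 20948 when 1 H3K9me3 library was left out, 2437 without NCCIT and at least 3945 without one of the others. The share of guide sites, 24.9%, was then 44.6%, 29.7% and 29.8% under the first 3, and 12.02% with the match on the site, 31.6% within 2 kb and 19.5% for exact matches. The share of sites that met the SVA word by at least 1 bp, with up to 3 mismatches, was 11.2%. It was 5.08% for exact words and 22.7% within 1 kb. The 89 sites given above for the exact word are fewer, as they held the whole word and its NGG. The SVA word and the other word differ at 3 bases, so a search with 3 mismatches also finds the other word. Of the 222 sites behind the 11.2%, 112 had 3 mismatches. The OCT4 difference of −6.98 percentage points was −4.32 when every library gave as many peaks and −8.79 with peaks within 500 bp, and the guide site difference was −16.1 instead of −25.2 with as many peaks. The YY1 difference was −3.19 to −0.33 over all sites and −11.9 to −6.05 at guide sites with 1 library left out, −3.92 and −14.6 when every library gave as many peaks. The genes within 10 kb, 2123, were 1270 by TSS and 1044 if protein-coding. Called genes near sites, 236, were 106 past a log2 fold change of 0.5 in size, 132 by TSS and 245 with DESeq2. With 1 library left out they were 138 to 270. Over all genes the main fit called 17.5%, DESeq2 11.8% and the fits with 1 library left out 8.39 to 19.6%. Among only those tested genes that were past a log2 fold change of 0.5 in size, 50.5% were called. Of tested genes with a TSS within 10 kb of a site, 27.4% were called. The lower genes by guide sites, 65, were 38 at that fold change and 54 to 70 with 1 left out.

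Same-numbered RNA libraries were not treated as pairs. Their deviations correlated at 0.291, 0.0879 and −0.01, which does not settle whether they shared a batch. A replicate block gave 263 called genes near sites and 71 lower by guide sites, and called 20.3% of all genes. Of the genes named, 5 values changed sign, in 4 genes that were not called. With 1 library left out PDE4D ran from −0.13 to 0.23, being also −0.07 without doxycycline replicate 3, PLPP7 from −0.0015 to 0.13, CHST6 from −0.035 to 0.080 and ENSG00000261717 from −0.083 to 1.27. CUBN, FHAD1 and STON2 lost their call under 12 settings in all, 6 of them for CUBN. The differences of YY1 and OCT4 over all sites and over guide sites, and that of all guide places together, kept their direction under the settings run, and those by word were not run. The causes of these moves were not tested.

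Only 1 OCT4 library a condition, 2 YY1 libraries a condition and peak lists without reads limit what can be said of binding, and 2 against 2 libraries cannot pass a threshold in an exact permutation test. The parts of the DNA that the aligner could not place uniquely, as in copies of a repeat, are missing from the peaks. The measures of guide sites and guide places, with their settings, were chosen after seeing the data.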
